A study of Mus musculus with 2 samples.

Results

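The genes described here act in the recognition and uptake of apoptotic cells: the TAM receptor kinases Mertk, Axl and Tyro3, the bridging ligands Gas6, Pros1 and Mfge8, the receptors Timd4 and Trem2, and the adaptor Tyrobp, also called DAP12. They were chosen by gene symbol, with earlier results of these data known, and all 9 were found among the 24319 rows of expression values. The values came from skin lymphatic endothelial cells (LECs) of C57BL/6 mouse embryos at E15.5 (embryonic day). One library was labelled wild type (the control). The other was labelled Dot1l knockout and is called the KO-labelled library. Dot1l encodes the H3K79 histone methyltransferase, and the labels write the knockout as an endothelial deletion. The sources used here give neither the Cre driver nor the way the cells were purified. Each library was made from RNA pooled over 2 to 3 biological replicates, so there was 1 library per genotype and no replicate check. No test, p-value or SD is given, and every difference is a comparison of these libraries. The labels also describe cultured dermal LECs, but the sources used here do not say whether the sequenced cells were cultured.

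Dying cells expose the lipid phosphatidylserine on their surface. Some receptors, such as the one encoded by Timd4, bind it directly, while the TAM receptors are engaged through the bridging proteins GAS6 and protein S (Pros1), and integrins through MFG-E8 (Mfge8). TREM2 binds lipids and lipoproteins and signals through DAP12, which carries the tyrosine motif that recruits the kinase SYK. Macrophages use most of these genes, and AXL and protein S are also made in endothelium and stroma.

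Values are FPKM (fragments for each kilobase of transcript, scaled to 1000000 mapped fragments), a level per transcript length that allows genes to be compared within a library. Each difference is log2(FPKM + 1) in the KO-labelled library minus that in control, a scale that compresses differences of genes at low levels. The summed FPKM was 415537 in control and 530294 in the KO-labelled library, and low values implied about 10200000 and 9080000 fragments, an estimate that assumes the deposited values carry no scaling between libraries. Dot1l was 5.86 FPKM in control and 10.4 in the KO-labelled library. It is a value for the entire gene, and since the sources used here do not name the deleted exons, it does not check the label. The pan-endothelial markers of LECs were present in both libraries and lower in the KO-labelled library: 12 of 14 were at least 2-fold lower, and their summed level was 1533 FPKM in control against 356 FPKM. Of 10 lymphatic markers 9 reached 1 FPKM and 7 of them were at least 2-fold lower. The others were Itga9, an integrin of lymphatic valves, which was higher (20.5 and 61.7 FPKM), and Lyve1, the hyaluronan receptor, at 526 and 552.5 FPKM. Ccl21a, a chemokine of LECs, was under 1 FPKM in control and listed at 0 in the KO-labelled library. All 20 macrophage markers were at least 2-fold higher there, with a summed level of 70.6 FPKM in control and 6604 in the KO-labelled library, and all 10 mast cell markers were higher as well (123 and 13890 FPKM). The summed fibroblast markers were 4360 and 1016 FPKM. In such bulk RNA, a different number of cells of a type and a different amount of RNA per cell cannot be told apart.

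Of the 9 genes, 5 were at least 2-fold higher in the KO-labelled library (Mertk, Gas6, Timd4, Trem2 and Tyrobp), 3 were at least 2-fold lower (Axl, Tyro3 and Pros1) and Mfge8 lay within 2-fold. Across all 13296 genes at 1 FPKM or more in at least 1 library, 16.8% were 2-fold or more higher, 15.49% were 2-fold or more lower, and 32.3% were past 2-fold in either direction, beside 8 of the 9 genes. All 9 genes reached that minimum, Timd4 and Trem2 only through the KO-labelled library, so those genes had to be higher there. Tyro3 reached it only through control, so it had to be lower in the KO-labelled library. The median log2 difference of the 9 genes was 1.83, from -2.51 to 6.37, beside a median of 0.00 over all genes tested.

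**Figure D1:**
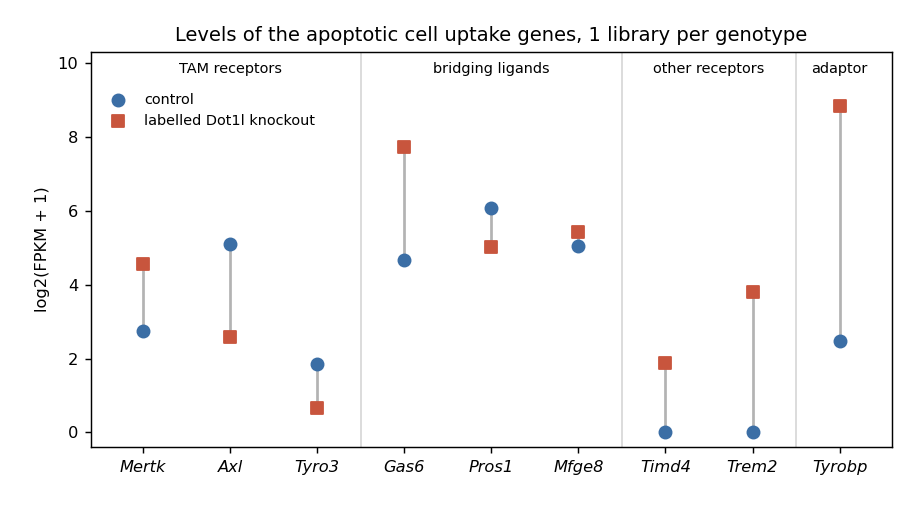
Levels of the 9 genes as log2(FPKM + 1) on the vertical axis, with 1 circle for the control library, 1 square for the library labelled Dot1l knockout and a grey line joining them. The squares of Mertk, Gas6, Timd4, Trem2 and Tyrobp lie above the circles, those of Axl, Tyro3 and Pros1 below them, and Tyrobp spans the longest line (4.52 and 456 FPKM).

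The TAM receptors went in opposite directions. Mertk, the TAM kinase of macrophages best known for clearing apoptotic cells, was 5.69 FPKM in control and 22.7 in the KO-labelled library, a 3.99-fold higher level and a log2 difference of 1.83. Axl, a receptor that binds GAS6, was 33.2 FPKM in control and 5.03 in the KO-labelled library, 6.61-fold lower, with a log2 difference of -2.51. Tyro3, the TAM member best known from the nervous system, was the lowest of the receptors in both libraries, at 2.62 FPKM in control and 0.567 in the other, a log2 difference of -1.21. The lower Tyro3 value rests on about 21.9 fragments, if its longest coding transcript is the one expressed. The level of Axl was 5.85 times that of Mertk in control and 0.221 times that of Mertk in the KO-labelled library. The leading receptor therefore differed between the libraries, and this order does not depend on how a library is scaled.

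Expressed as shares of the summed TAM receptor FPKM, Axl made up 80.0% in control and 17.8% in the KO-labelled library, and Mertk 13.7% and 80.2%. Tyro3 made up 6.30% and 2.00%. The summed level of the receptors was 41.5 FPKM in control and 28.3 in the KO-labelled library, a smaller ratio than that of any single receptor.

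**Figure D2:**
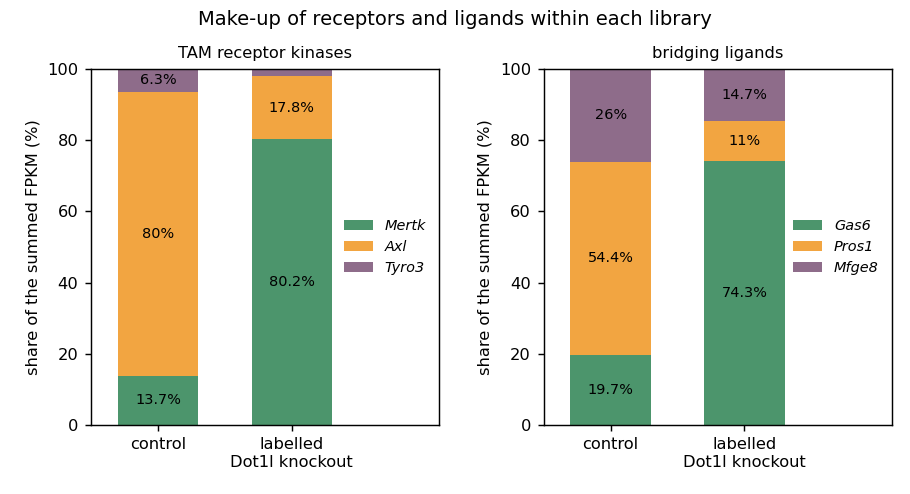
Share of each gene, in percent, of the summed FPKM of the TAM receptors (left) and of the bridging ligands (right), with 1 stacked bar per library. Axl (80.0%) and Pros1 (54.4%) form the largest blocks in control, and Mertk (80.2%) and Gas6 (74.3%) in the library labelled Dot1l knockout.

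The bridging ligands were also divided. Gas6, whose product binds all TAM receptors, was 24.2 FPKM in control and 212 in the KO-labelled library, 8.76-fold higher, with a log2 difference of 3.08. Pros1, which encodes protein S, an anticoagulant and a ligand of MERTK and TYRO3, was 67.0 FPKM in control and 31.4 in the KO-labelled library, 2.13-fold lower, with a log2 difference of -1.07. Mfge8, whose product links phosphatidylserine to alpha-v integrins, was 32.0 and 42.0 FPKM, a log2 difference of 0.38. Pros1 thus lay just past the 2-fold line and Mfge8 well inside it.

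Among the summed FPKM of these ligands, Pros1 was the largest share in control (54.4%) and the smallest in the KO-labelled library (11.0%). Gas6 was the smallest in control (19.7%) and the largest in the other (74.3%), and Mfge8 was 26.0% and 14.7%. Summed FPKM of Gas6, Pros1 and Mfge8 was 2.97 times summed TAM receptor FPKM in control and 10.1 times in the KO-labelled library. Without Mfge8, whose product bridges to integrins, the ratio was 2.196 in control and 8.617 in the KO-labelled library. The ratio of Gas6 to Axl was 0.729 in control and 42.3 in the KO-labelled library. These are ratios of transcripts and not of proteins.

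Timd4 and Trem2 were listed at 0 in control. A value of exactly 0 can be a failed estimate in such files, so no fold is given. Timd4, whose product TIM-4 tethers phosphatidylserine and marks some resident macrophages, was 2.67 FPKM in the KO-labelled library, from about 47.8 fragments. Trem2 was 12.96 FPKM there, from about 105 fragments. At the estimated depth of the control library, 1 fragment would give about 0.0495 FPKM for Timd4 and 0.110 FPKM for Trem2.

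Tyrobp, the adaptor that TREM2 and several other myeloid receptors need to signal, was 4.52 FPKM in control and 456 in the KO-labelled library. The ratio was 101-fold, and the log2 difference of 6.37 was the largest of the 9 genes. The Tyrobp transcript is short (at most 597 nt), so the control value rests on about 18.4 fragments. Within the KO-labelled library, the level of Tyrobp was 35.2 times that of Trem2.

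The promoter sequences of Trem2 and Timd4, both listed at 0 in control, and of Tyro3 and Pros1, both lower in the KO-labelled library, are given to show how their composition differs. RefSeq (GRCm38.p6) had a promoter for 8 of the 9 genes, matched by symbol. The files were made on another build, so the sequences are shown for their content and not joined to coordinates of the data. For 5 of the 8, among them the 4 shown, the start lay within 2 bases of a start in GENCODE M21, and for Mertk, Axl and Gas6 it did not. Each sequence is the 250 bases before the start, read 5′ to 3′ on the strand of the gene. Capitals mark matches to GAGGAA, the core of the ETS factor PU.1, or to TGANTCA, the AP-1 site (N is any base), on either strand. The motifs share no overlapping match here.
Trem2: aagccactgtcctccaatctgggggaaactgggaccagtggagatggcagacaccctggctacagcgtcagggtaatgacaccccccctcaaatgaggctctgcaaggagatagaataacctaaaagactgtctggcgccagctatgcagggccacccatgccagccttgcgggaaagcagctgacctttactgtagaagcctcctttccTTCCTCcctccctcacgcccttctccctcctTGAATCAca
Timd4: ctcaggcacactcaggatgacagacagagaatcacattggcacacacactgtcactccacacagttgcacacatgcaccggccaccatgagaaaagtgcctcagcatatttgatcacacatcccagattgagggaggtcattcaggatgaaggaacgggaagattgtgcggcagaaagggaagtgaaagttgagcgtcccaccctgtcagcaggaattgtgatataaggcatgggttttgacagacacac
Tyro3: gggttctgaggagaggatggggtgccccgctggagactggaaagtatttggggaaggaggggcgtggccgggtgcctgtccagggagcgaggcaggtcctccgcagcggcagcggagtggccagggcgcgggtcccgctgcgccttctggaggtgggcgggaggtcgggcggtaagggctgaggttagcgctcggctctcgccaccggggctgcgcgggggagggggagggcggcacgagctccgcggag
Pros1: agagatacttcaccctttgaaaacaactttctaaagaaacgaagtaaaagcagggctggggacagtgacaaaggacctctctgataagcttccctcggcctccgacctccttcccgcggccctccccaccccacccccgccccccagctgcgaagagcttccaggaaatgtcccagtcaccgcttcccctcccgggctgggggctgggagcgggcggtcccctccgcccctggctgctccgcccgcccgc
They lie at chr17:48346151-48346400 (plus strand), chr11:46810549-46810798 (plus strand), chr2:119799264-119799513 (plus strand) and chr16:62854057-62854306 (plus strand) of GRCm38.

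CpG dinucleotides numbered 4 in the Trem2 window and 4 in that of Timd4, below the median of 6 over 32851 RefSeq promoter windows of this length. Tyro3 had 24 and Pros1 15. The windows of Mertk (7), Axl (5), Gas6 (10) and Mfge8 (12) lay between. Axl, lower in the KO-labelled library, was thus also below the median of all windows, and Mertk and Gas6, higher there, were above it. GAGGAA occurred in the windows of Trem2, Axl and Mfge8, that is in 3 of 8, against 23.3% of all windows. In Trem2 it stood on the opposite strand, 40 to 35 bases before the start. TGANTCA occurred in Trem2 alone among the 8, 9 to 3 bases before the start, against 6.75% of all windows. Genes that were higher and genes that were lower in the KO-labelled library thus both held GAGGAA. Neither motif stood in the windows of Mertk, Gas6 and Timd4, which were higher, or of Tyro3 and Pros1, which were lower. A match is a stretch of letters and not a measured binding site.

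Levels of the 9 genes were set beside single markers of cell types within each library. The ratio of Tyrobp to Csf1r, the growth factor receptor of macrophages, was 4.11 in control and 3.01 in the KO-labelled library, so these genes differed to a like extent. The ratio of Mertk to Csf1r was 5.17 in control and 0.150 in the KO-labelled library. That of Gas6 to Csf1r was 22.0 and 1.40. Mertk and Gas6 were thus less high, relative to control, than Csf1r, which was 1.10 and 152 FPKM. The ratio of Axl to Pecam1, a junction protein of endothelium, was 0.153 and 0.102, and that of Tyro3 to Pecam1 was 0.0120 and 0.0115. For Pros1 it was 0.308 and 0.638, so Pros1 was lower by a smaller factor than Pecam1, which was 218 and 49.2 FPKM.

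The medians of the marker lists were set beside the same genes. The macrophage list had a median log2 difference of 5.61, the mast cell list of 6.32, the pan-endothelial list of -2.01, the fibroblast list of -2.14 and the pericyte and smooth muscle list of -2.56. Tyrobp, at 6.37, lay above the macrophage median and close to the mast cell median. Gas6 and Mertk lay below both, and Axl lay below the medians of the endothelial and fibroblast lists. None of the 20 macrophage markers was at 0 in either library, and in control they ranged from 0.173 to 31.1 FPKM. Of 5 dendritic cell and neutrophil markers at 1 FPKM or more, 3 were 2-fold or more higher and 2 within 2-fold (median 3.40). The shares of all genes tested were 16.8% and 67.7%. Of the 3, Cd209a was listed at 0 in control, so it had to be higher, and S100a9 was 1.63 and 205 FPKM. The part of more macrophage, mast cell or other myeloid RNA, or of less endothelial and stromal RNA, in the differences of the 9 genes was not tested.

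**Figure D3:**
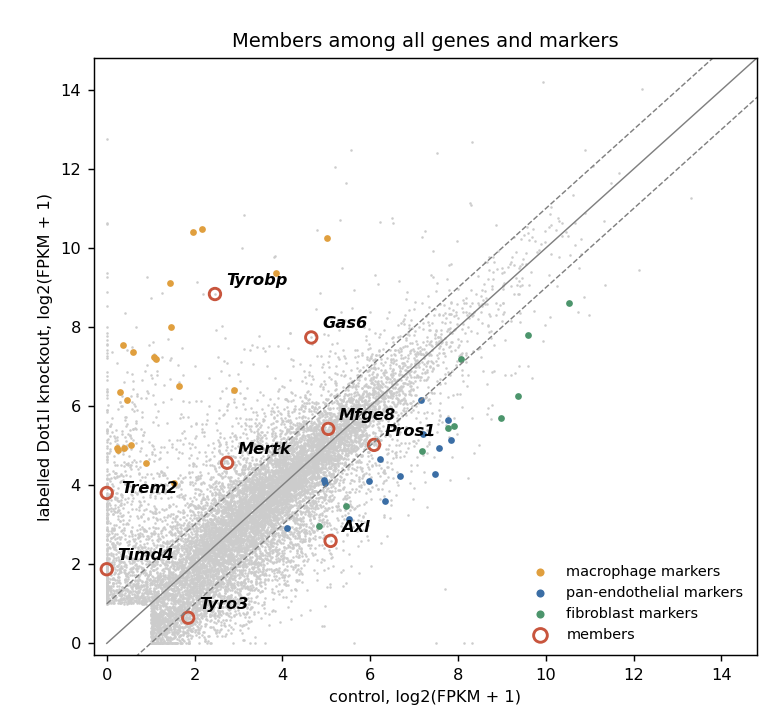
Each dot is a gene at 1 FPKM or more in at least 1 library, with log2(FPKM + 1) in control on the horizontal axis and in the library labelled Dot1l knockout on the vertical axis. The solid line is equality and the dashed lines are 2-fold. Tyrobp lies among the 20 macrophage markers (orange), Axl below the lower dashed line with the pan-endothelial (blue) and fibroblast (green) markers, and Mertk and Gas6 between these groups. Mast cell markers, among them Tpsb2 and Mcpt4, which lay nearest to Tyrobp, are not coloured.

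A further 91 genes of apoptotic cell uptake were described by role, in lists chosen with earlier results of these data known. The shares of all genes beside them are therefore no independent comparison. Of the 85 at 1 FPKM or more, 39 were 2-fold or more higher in the KO-labelled library and 8 were 2-fold or more lower, with a median log2 difference of 0.74, beside 16.8% and 15.49% of all genes tested. Of the 39, 21 were under 1 FPKM in control and reached the minimum only through the KO-labelled library, so they had to be higher there. Among the 8, Megf10 reached it only through control, so it had to be lower. Cd14, Cx3cr1 and Msr1 among the 39 are also macrophage markers.

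The other bridging molecules were mostly higher, with 7 of 8 past 2-fold and a median of 3.32. Of all genes tested, 16.8% were higher by that much. In control, 2 of the 7 were under 1 FPKM, so they had to be higher in the KO-labelled library. C1qa and C1qb, chains of the complement protein C1q that coats dying cells, were 1.01 and 429 FPKM and 0.344 and 327 FPKM. Apoe, a lipoprotein that TREM2 binds, was 145 FPKM in control and 1239 in the KO-labelled library. Thbs1, a matrix protein that bridges to CD36, was 72.7 and 170 FPKM. Anxa1 was the single lower one, at 161 and 71.6 FPKM. The high Apoe in control separates it from C1qa and C1qb, which were near the bottom of the scale there.

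Among 16 other uptake receptors at 1 FPKM or more, 8 were 2-fold or more higher and 3 were lower by that much (median 0.95). Of all genes tested, 16.8% were higher and 15.49% lower by that much, the latter near the share of the 3. In control, 5 of the 8 were under 1 FPKM, so they had to be higher in the KO-labelled library. Megf10, 1 of the 3, was 1.76 and 0.267 FPKM, so it had to be lower there. With no minimum the median became 0.29. The scavenger receptor Msr1 was 0.224 and 81.5 FPKM, and Havcr2, which encodes the phosphatidylserine receptor TIM-3, was 0.115 and 17.6 FPKM. Scarf1, an endothelial scavenger receptor that binds C1q, was 20.8 and 7.15 FPKM, and Cd36 was 153 and 74.1 FPKM. The integrin chains that receive MFG-E8 were all within 2-fold: Itgav was 24.1 and 17.5 FPKM, Itgb5 17.4 and 15.3, and Itgb3 9.43 and 4.86.

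In the list of DAP12 receptors and signalling, 11 of 14 genes were 2-fold or more higher, 3 lay within 2-fold, and the median was 2.73. Of all genes tested, 16.8% were higher by that much and 67.7% lay within 2-fold. In control, 8 of the 11 were under 1 FPKM, so they had to be higher in the KO-labelled library. The 11 became 7 with a pseudocount of 5, where 9.95% of all genes tested were higher. At a minimum of 5 FPKM they became 7 of a smaller number of genes, where 17.5% of all genes tested were higher. The median became 1.22 with that pseudocount, 1.42 with no minimum and 3.25 at a minimum of 5 FPKM. Syk, the kinase recruited by DAP12, was 2.31 FPKM in control and 31.7 in the KO-labelled library. Lat2, an adaptor of myeloid and mast cells, was 0.271 and 62.9 FPKM. Hcst, which encodes the related adaptor DAP10, was listed at 0 in control and was 4.05 FPKM in the other library. Its level there was far below that of Tyrobp. The kinase Lyn, which endothelium also expresses, was 77.1 and 81.4 FPKM. The proteases that shed TAM receptors and TREM2 were within 2-fold, with Adam10 at 65.3 and 52.3 FPKM and Adam17 at 29.3 and 53.6.

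Of the signals that attract or repel phagocytes, 7 of 10 were within 2-fold, near the 67.7% of all genes tested. Their median was 0.29, and it turned to -0.03 with both libraries scaled to sum to 1000000 and to -0.08 at a minimum of 5 FPKM. Cx3cr1, the fractalkine receptor, was 0.461 and 31.6 FPKM, and Sirpa, the receptor for the signal CD47, was 18.0 and 128. Atp11a, a flippase that keeps phosphatidylserine on the inner side of the membrane, was 21.1 and 11.5 FPKM, lower by less than 2-fold. It acts in the cell that is eaten, and Cx3cr1 and Sirpa in the cell that eats.

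In the engulfment machinery 5 of 14 genes were past 2-fold upwards and 2 downwards (median 0.36). Of all genes tested, 16.8% were past 2-fold upwards and 15.49% downwards, the latter near the share of the 2. In control, 3 of the 5 were under 1 FPKM, so they had to be higher in the KO-labelled library. The 5 became 3 at 3-fold, where 9.76% of all genes tested were higher. The median became 0.02 with both libraries scaled to sum to 1000000. Dock2, the RAC activator of blood cells, was 0.602 and 77.9 FPKM, and Vav1, another activator of blood cells, 0.350 and 44.0. Gulp1, an engulfment adaptor, was 22.0 and 3.61, and the focal adhesion kinase gene Ptk2 54.2 and 23.0. Of 15 genes of the phagosome and of lipid export, 5 were at least 2-fold higher and 1 lower (median 0.62). The shares of all genes tested were again 16.8% and 15.49%. These 5 became 8 at 1.5-fold and 2 at 3-fold, where 26.1% and 9.76% of all genes tested were higher. In control, 1 of the 5 was under 1 FPKM. Cybb, the oxidase subunit of phagocytes, was 0.592 and 21.6 FPKM, and Dnase2a, the lysosomal nuclease that degrades engulfed DNA, 2.03 and 34.6. Pparg, a nuclear receptor of lipid handling that adipocytes also express, was 44.2 and 7.04, and Nr1h2, which encodes LXR-beta, 9.33 and 11.6.

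GAS6 and protein S must be carboxylated on glutamates to bind phosphatidylserine, and TAM signalling raises SOCS proteins. In this list 7 of 8 genes were within 2-fold, beside 67.7% of all genes tested, with a median of -0.10. Ggcx, the carboxylase, was 13.1 and 7.23 FPKM, and Vkorc1, which recycles its vitamin K cofactor, 17.4 and 16.3. Vkorc1l1, a relative of Vkorc1, was 8.62 and 14.5, and Ifnar1, the interferon receptor that TAM receptors pair with, 26.0 and 25.5. Twist1, a transcription factor of mesenchyme reported downstream of TAM signalling, was the exception, at 36.9 and 9.87 FPKM. The enzymes that mature GAS6 thus differed far less than Gas6 itself.

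**Figure D4:**
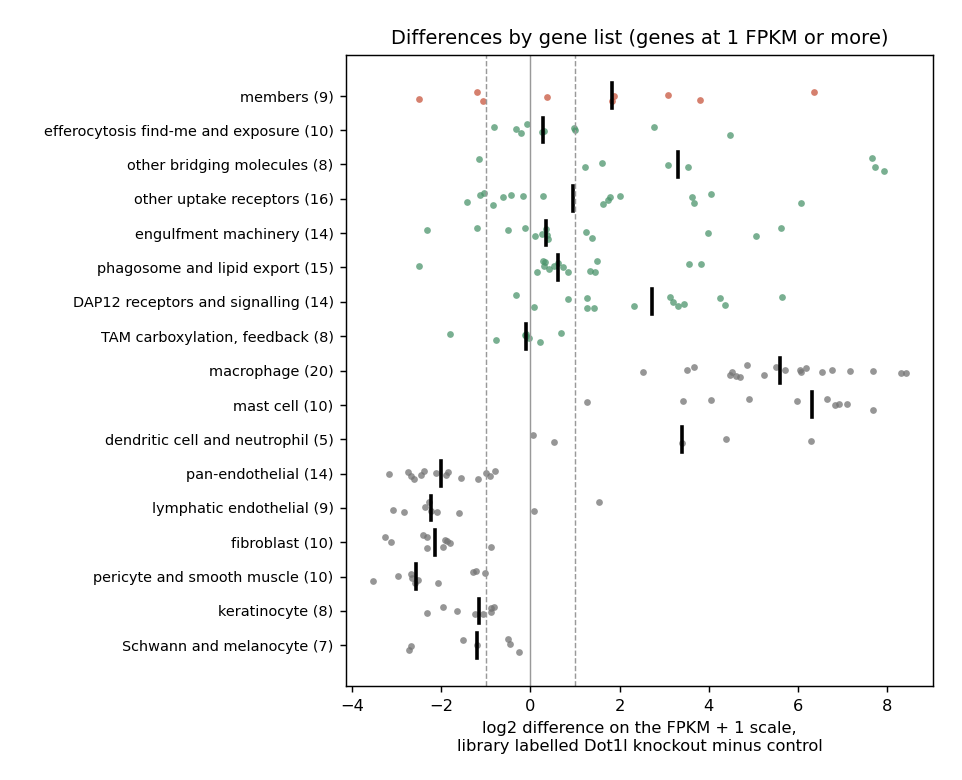
Log2 difference on the FPKM + 1 scale (library labelled Dot1l knockout minus control) for every gene at 1 FPKM or more, by list, with the number of genes in brackets, a black bar at each median and dashed lines at 2-fold. The 9 genes described here (red) run from -2.51 to 6.37, the wider uptake lists (green) have medians from -0.10 to 3.32, and the macrophage list (grey) has a median of 5.61.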

How the data were processed

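Per the labels' protocols, total RNA pooled over 2 to 3 biological replicates with an integrity number above 7.0 was made into ScriptSeq v2 libraries. The deposited values were taken as FPKM made by the authors: the submitters' processing notes name STAR 2.5.2b, Cufflinks 2.2.1, Cuffnorm, R 3.3.2 and the build mm9, without roles. The sources used here do not say whether the libraries were scaled to each other.

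Rows were matched by symbol or RefSeq synonym (Python 3.11.15, numpy 2.4.6, pandas 2.3.3). Differences used a pseudocount of 1 and a minimum of 1 FPKM in at least 1 library, and a gene counted as higher or lower at 2-fold. The unstated depth was estimated from the step between low values of single-transcript genes of at least 2500 nt, assuming fragments of 200 nt. At the chosen step, 83.0% of 159 values in control and 76.0% of 175 in the KO-labelled library came within 0.1 of whole fragments. Fragments behind a gene follow from its longest coding GENCODE M21 transcript and are approximate. Whole reads were not recovered, so no count model was used. The scripts were tested on simulated data.

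The members and lists were chosen with earlier results of these data known. Named uptake genes are, in each list, the 2 genes with the highest and the 2 with the lowest difference among those at 5 FPKM or more, plus direct partners of the 9 genes, and a few of these are not reported here. The alternatives were other pseudocounts, scalings, minimums and fold thresholds.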

Additional observations from a re-analysis of the deposited data

How the results depend on the processing

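No paired analysis was possible because only 1 library stands for each genotype, which also means that no library could be left out. Across up to 8 alternatives per gene, each of the 9 genes kept the sign of its log2 difference, and Mertk, Axl, Gas6, Trem2 and Tyrobp stayed past 2-fold. Mfge8 ran from 0.04 to 0.39. With a pseudocount of 5, the log2 differences of Tyro3 (-0.45), Pros1 (-0.98) and Timd4 (0.62) no longer reached 2-fold. Pros1 had lain close to that threshold. The 3 lower genes became 1 with a pseudocount of 5 and 1 at 3-fold, and the 8 lower genes of the wider uptake lists became 3 at 3-fold. Over all genes tested, the share that was lower also fell, from 15.49% to 6.93% with that pseudocount and to 6.81% at 3-fold. Rescaling each library to a sum of 1000000 moved the median of all genes from 0.00 to -0.35, and the shares of genes at least 2-fold higher and lower from 16.8% and 15.49% to 14.2% and 25.19%. Adding 1 FPKM to each value moved no share of a receptor or ligand by more than 5 percentage points. Depth limits Tyro3, Timd4 and the control value of Tyrobp most.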

Other observations

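The genes whose pair of log2(FPKM + 1) values over the 2 libraries lay nearest to each member, by Euclidean distance, were found among the genes tested. Small RNAs, predicted genes, clone names and date-like symbols were left out. With 2 libraries such nearness is a description only. Mertk lay nearest to Dpp7 (5.76 and 22.8 FPKM, distance 0.016) and Amdhd2, and Axl to Efna1 (32.7 and 5.57 FPKM, distance 0.13) and Cmtm8. Tyro3 lay nearest to Zfp13 and Shc2, Pros1 to Tm4sf1 (66.4 and 32.0 FPKM, distance 0.027) and Pin4, and Mfge8 to Nmd3 and Msantd4. Gas6 lay nearest to Osbpl8 (24.5 and 190.0 FPKM, distance 0.16) and Plgrkt. Trem2 lay nearest to Cd180 and Wfdc21, and Timd4 to Chil1 and Slpi, all of which were listed at 0 in control. Tyrobp lay nearest to Tpsb2 (3.55 and 459 FPKM, distance 0.28) and Mcpt4, both genes of mast cell proteases.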
